A study of Mus musculus with 6 samples.

Results

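Aldehyde dehydrogenases and the enzyme crystallins of the cornea were followed through an alkali burn of the mouse eye. The genes were 9 symbols given as a list, Aldh3a1, Aldh1a1, Aldh1a2, Aldh1a3, Aldh1a7, Aldh2, Aldh3a2, Aldh3b1 and Tkt, and all 9 were found among the 28539 loci of the deposited gene table. RNA came from whole corneas of female C57BL/6J mice aged 6 to 8 weeks, in 3 groups of 2 samples: untreated corneas (day 0) and corneas collected 5 days and 15 days after the burn. All groups share the strain, sex and age, no group carries a transgene or deletion, and separate animals and pools cannot be told apart from the labels for the 2 samples in each group.

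Aldehyde dehydrogenases oxidise aldehydes to carboxylic acids and use NAD or NADP as the electron acceptor. In the mammalian cornea a few enzymes accumulate far beyond what catalysis needs and are called corneal crystallins. In the mouse these are ALDH3A1, which also clears the aldehydes formed when ultraviolet light oxidises lipids, and transketolase (Tkt), an enzyme of the non-oxidative pentose phosphate pathway. ALDH1A1, ALDH1A2 and ALDH1A3 convert retinaldehyde to retinoic acid, ALDH2 is the mitochondrial enzyme for acetaldehyde, ALDH3A2 acts on fatty aldehydes, and ALDH3B1 acts on medium-chain and long-chain aldehydes. Aldh1a7 is a rodent gene closely related to Aldh1a1 and lies beside it on chromosome 19.

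The 8 dehydrogenases share a catalytic cysteine, which a search of their translated coding sequences with the PROSITE pattern for the cysteine active site found once in each and not in Tkt. The 36 bases that encode this site are shown for the genes the results turn on, because they mark what the family has in common and how far its branches have parted. They come from GENCODE M21 transcripts on GRCm38 and are written 5′ to 3′ on the coding strand, with the codon of the cysteine in capitals.
Aldh3a1, chromosome 11, 61215509 to 61215544, plus strand: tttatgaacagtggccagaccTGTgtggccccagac
Aldh1a1, chromosome 19, 20630701 to 20630736, plus strand: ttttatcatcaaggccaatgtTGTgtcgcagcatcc
Aldh1a7, chromosome 19, 20708264 to 20708299, minus strand: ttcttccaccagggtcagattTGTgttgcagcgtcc
Aldh1a3, chromosome 7, 66406088 to 66406123, minus strand: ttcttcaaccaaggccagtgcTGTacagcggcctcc
Each of these stretches lies within 1 exon. The cysteine is residue 244 of ALDH3A1, residue 303 of ALDH1A1 and of ALDH1A7, and residue 314 of ALDH1A3. Of the 36 bases of Aldh3a1, 26 are the same in Aldh3b1 and 25 in Aldh3a2, against 19 in Aldh1a1 and 20 in Aldh1a3. Over the coding sequence Aldh1a1 and Aldh1a7 are 91.6% identical and share a run of 100 bases, and 7.53% of the 50-base words of the Aldh1a1 transcript also occur in that of Aldh1a7. Fragments from these shared stretches cannot be assigned to one gene by sequence, so that the low Aldh1a7 values below are uncertain. Between Aldh1a1 and Aldh1a2 or Aldh1a3, and between Aldh3a1 and Aldh3a2 or Aldh3b1, 0% of such words are shared. Aldh3b1 shares 6.51% of its words and a coding run of 87 bases with Aldh3b2, so that values of this pair are uncertain in the same way.

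The values are FPKM, fragments counted per kilobase of transcript and scaled to the mapped fragments of the library. The table holds a single FPKM for each group, into which its 2 samples were pooled. The range after an FPKM is the authors' interval for that group, whose level is not given in the sources used here. Only loci with a usable value in both groups, as the table marks it, were compared. Of these, loci are called apart here when 3 conditions hold for a pair of groups: the larger FPKM reaches 1, the log2 ratio of (FPKM + 1) reaches 1 in either direction, and the intervals are clear of each other. With 0 columns of individual samples, neither a spread between samples nor a test can be given, and the number of reads is unknown. As a check of the tissue, 11 of 12 corneal epithelial markers had a usable value and none of these was below an FPKM of 1 in any group; for the other, Krt12, the table marks day 0 as having too many fragments to process. In whole tissue, fewer cells of a type and less RNA per cell cannot be told apart.

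Aldh3a1 and Aldh1a1 were far lower 5 days after the burn, Tkt had a lower value without being apart, and Aldh1a3 was higher at both times. At day 5, 2 of the 9 genes were lower and apart, where 2.5% of all 15576 loci tested were, and 1 of 9 was higher and apart, where 3.42% were. At day 15, 1 of 9 was lower and apart, against 1.81% of 15186 loci, and 1 of 9 was higher and apart, against 2.91%. Between day 15 and day 5 none of the 9 was apart in either direction, where 0.395% of 14683 loci were higher and apart and 0.388% lower and apart. The median log2 ratio over the 9 genes was -0.41 at day 5 and -0.58 at day 15 against day 0, beside -0.09 and -0.10 over all loci tested. All 9 passed the filter on low values in the 3 comparisons. The first 2 comparisons share the day 0 samples. The 9 genes were chosen with earlier results of these data known, so the counts beside the shares of all loci are a description and no test of an excess.

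**Figure D1:**
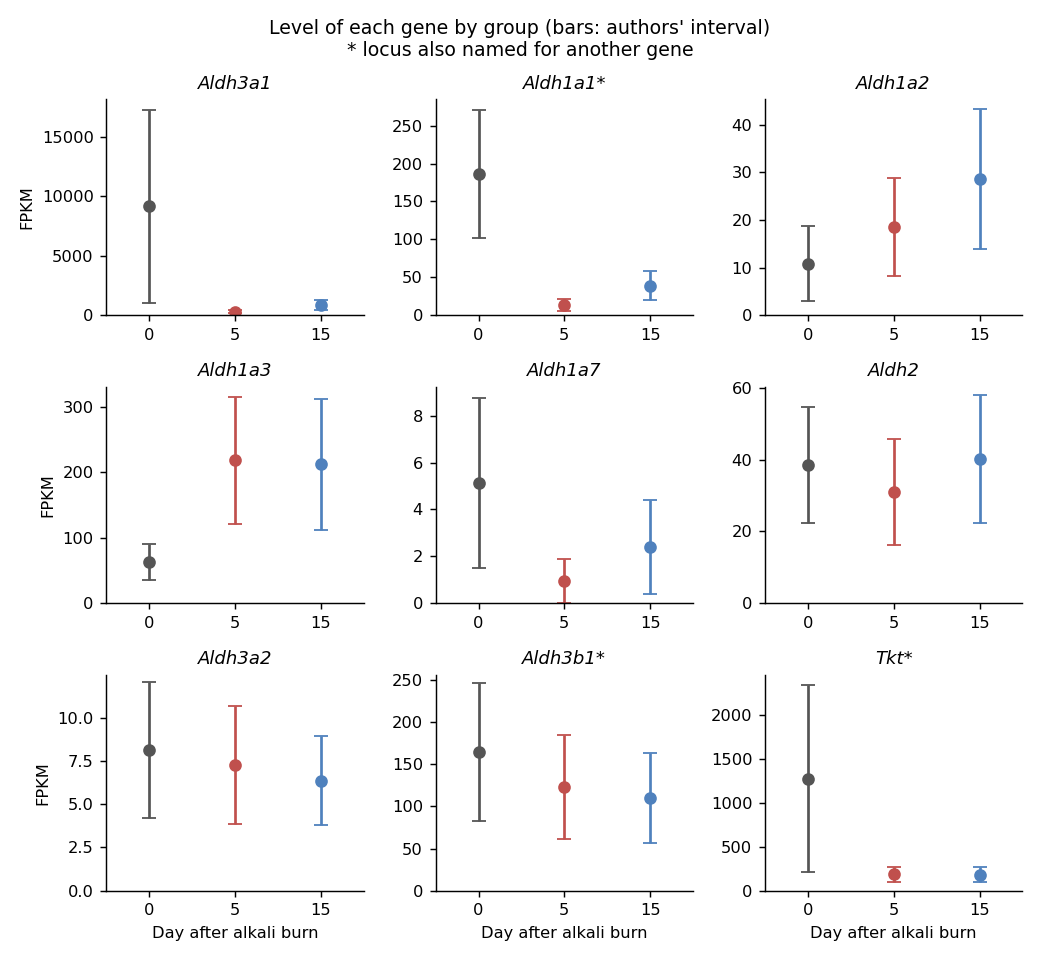
FPKM (vertical axis, linear, one scale per panel) of the 9 genes in untreated corneas and 5 and 15 days after an alkali burn; points are the authors' group values and bars their intervals. Aldh3a1, Aldh1a1 and Tkt stand highest at day 0, Aldh1a3 stands highest at days 5 and 15, and Aldh2, Aldh3a2 and Aldh3b1 overlap at all 3 times.

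The enzyme crystallins came first in abundance before the injury. Aldh3a1 lies on chromosome 11 (mm10, 61207965 to 61218416, plus strand). Its FPKM was 9149.9 (998 to 17302) before the burn, 303 (165 to 441) at day 5 and 866 (437 to 1294) at day 15. The value in untreated corneas was thus far above those of both injured groups, although the day 15 interval met that of day 0. Aldh3a1 held rank 11 among 23889 loci with a symbol at day 0, rank 273 at day 5 and rank 109 at day 15. The day 5 level was 3.31% of that at day 0 and the day 15 level 9.46%. The day 5 interval lay below that of day 0, with 2.26-fold between the nearest bounds, so that Aldh3a1 was lower and apart (log2 ratio -4.91). At day 15 the log2 ratio was still -3.40, but the upper bound of 1294 passed the lower bound of the wide day 0 interval. The day 15 value was 2.86-fold above that of day 5, and these intervals overlapped by a narrow margin, from 437 to 441.

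Tkt joins sugar phosphates in the pathway that supplies ribose and, with its oxidative arm, NADPH. Its locus (chromosome 14, 30548280 to 30575360), which also carries the symbol of the microRNA Mir3076, had an FPKM of 1275 (209 to 2341) at day 0, 187 (101 to 273) at day 5 and 184 (99.7 to 268) at day 15. Tkt was 6.82-fold lower at day 5 and 6.93-fold lower at day 15, yet was not apart at either time, since the day 0 interval reaches down to 209. The values of days 5 and 15 differed by 1.02-fold, whereas Aldh3a1 and Aldh1a1 had higher values at day 15 than at day 5. The ratio of Aldh3a1 to Tkt was 7.18 before the burn, 1.62 at day 5 and 4.70 at day 15. The intervals of the 2 genes overlapped at days 0 and 5 and were clear of each other only at day 15. The half-width of the day 0 interval was 89.1% of the FPKM for Aldh3a1 and 83.6% for Tkt, against a median of 54.3% over loci with an FPKM of at least 5.

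Of the 3 genes whose enzymes make retinoic acid, Aldh1a1 had the highest level before the burn and Aldh1a3 at both times after it. Aldh1a1 (chromosome 19, 20492466 to 20643562, a locus that also carries the symbol E030003E18Rik) had an FPKM of 187 (102 to 271) at day 0, 13.0 (5.05 to 21) at day 5 and 38.7 (19.4 to 58.0) at day 15. It was lower and apart at both times, by 14.3-fold and 4.82-fold, with 4.86-fold and 1.76-fold between the nearest bounds. Its value at day 15 was 2.97-fold that of day 5, and the intervals overlapped between 19.4 and 21.

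Aldh1a3 (chromosome 7, 66390307 to 66428359) went the other way, with an FPKM of 63.1 (35.3 to 90.8) at day 0, 218 (121 to 316) at day 5 and 212 (112 to 312) at day 15. It was higher and apart at both times, by 3.46-fold and 3.36-fold, and the 2 injured groups differed by 1.03-fold. The intervals cleared each other by 1.33-fold at day 5 and 1.23-fold at day 15, so the call rests on a small gap. Aldh1a2 (chromosome 9, 71215789 to 71296243) had an FPKM of 10.8 (2.93 to 18.8), 18.6 (8.28 to 28.9) and 28.6 (13.8 to 43.3) at days 0, 5 and 15. Its value was highest at day 15, 2.63-fold above day 0, and it was not apart in any comparison.

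The summed FPKM of Aldh1a1, Aldh1a2 and Aldh1a3 was 261 at day 0, 249.9 at day 5 and 279 at day 15. Within that sum, Aldh1a1 held 71.6%, 5.21% and 13.9%, while Aldh1a3 held 24.2%, 87.4% and 75.9%. Aldh1a2 held 4.16%, 7.43% and 10.2%. The sum thus differed little between groups while its main contributor at day 0 was Aldh1a1 and after the burn Aldh1a3, the 2 members whose intervals parted. FPKM counts transcripts per length and says nothing of the activity of these enzymes.

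Aldh1a7 (chromosome 19, 20692953 to 20727556) was the least abundant of the 9 genes in every group, with an FPKM of 5.13 (1.49 to 8.78) at day 0, 0.919 (0 to 1.87) at day 5 and 2.40 (0.382 to 4.41) at day 15. The groups of Aldh1a7 stood in the same order as those of Aldh1a1, and it was not apart in any comparison. Aldh1a1 stood 36.4-fold above it at day 0, 14.2-fold at day 5 and 16.2-fold at day 15, so that a small share of misassigned Aldh1a1 fragments could make up much of the Aldh1a7 value, which was not tested.

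The start regions of this neighbouring pair are printed as a description of sequence only. Their transcripts had the same order of levels over the 3 groups, but misassigned Aldh1a1 fragments could give that order, which was not tested. The printed regions are from RefSeq on GRCm38.p6, 250 bases before to 50 after the annotated start, 5′ to 3′ in the direction of transcription. Of the annotated starts of Aldh1a1, the one whose region shares the longest run with that of Aldh1a7 was picked. Capitals mark the longest run shared by both, 65 bases.
Aldh1a1, chr19:20601718-20602017, plus strand: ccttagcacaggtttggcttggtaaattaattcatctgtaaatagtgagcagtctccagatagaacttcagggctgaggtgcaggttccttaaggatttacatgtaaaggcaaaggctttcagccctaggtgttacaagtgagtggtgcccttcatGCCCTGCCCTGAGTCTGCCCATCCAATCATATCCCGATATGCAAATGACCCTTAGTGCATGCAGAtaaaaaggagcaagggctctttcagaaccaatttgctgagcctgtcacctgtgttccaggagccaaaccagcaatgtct
Aldh1a7, chr19:20727507-20727806, minus strand: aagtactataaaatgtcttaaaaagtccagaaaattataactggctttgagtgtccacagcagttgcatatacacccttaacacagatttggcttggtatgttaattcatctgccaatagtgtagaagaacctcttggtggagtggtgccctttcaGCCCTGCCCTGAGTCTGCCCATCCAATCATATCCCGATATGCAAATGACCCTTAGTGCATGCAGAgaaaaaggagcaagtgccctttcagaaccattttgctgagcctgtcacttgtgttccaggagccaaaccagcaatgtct
The shared run holds the 8-base octamer ATGCAAAT, a motif known for POU-domain factors. Searched on both strands, the octamer was present in 570 of 32851 start regions in the table, or 1.74%, and among the 6 genes of this set with an entry it was also present in that of Aldh1a2, whose transcript had its lowest value at day 0. A second annotated start of Aldh1a1 (chr19:20492333-20492632) lacks these letters. A match describes the sequence alone, and no binding was measured.

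The remaining dehydrogenases differed little. Aldh2 (chromosome 5, 121567677 to 121593824) had an FPKM of 38.5 (22.4 to 54.6), 31.0 (16.3 to 45.7) and 40.2 (22.4 to 58.1) at days 0, 5 and 15. An exon of the gene model Gm42879 overlaps Aldh2 on the other strand, and the labels do not state strandedness. Aldh3a2 (chromosome 11, 61244752 to 61267186), which lies next to Aldh3a1, had an FPKM of 8.11 (4.19 to 12.03), 7.26 (3.84 to 10.7) and 6.35 (3.78 to 8.92). The neighbours on chromosome 11 thus stood far from each other in level at day 0, and the log2 ratio of Aldh3a2 at day 5 was -0.14 where that of Aldh3a1 was -4.91. The locus of Aldh3b1 (chromosome 19, 3908863 to 3930774) is merged with Ndufs8, which encodes a subunit of respiratory complex I, so its FPKM of 164 (82.4 to 246), 123 (61.6 to 185) and 109.7 (56.6 to 163) cannot be divided between them. None of these 3 loci was apart in any comparison.

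Neighbours in the order of levels mostly could not be separated. At day 0 the order was Aldh3a1, Tkt, Aldh1a1, Aldh3b1, Aldh1a3, Aldh2, Aldh1a2, Aldh3a2 and Aldh1a7, and only the intervals of Aldh2 and Aldh1a2 were clear of each other among neighbours. At day 5 Aldh1a3 stood second and Aldh1a1 seventh, with clear intervals only between Aldh3b1 and Aldh2 and between Aldh3a2 and Aldh1a7. At day 15 Aldh3a1 was clear of Aldh1a3, and Aldh1a2 of Aldh3a2, while all other neighbours overlapped.

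The rest of the family was described from a list of 13 further aldehyde dehydrogenases, of which 12 are in the table and 11 passed the filter; Aldh3b3 is the gene without a row under its symbol. Aldh3b2, a close relative of Aldh3b1, had an FPKM of 255 (141 to 369) at day 0, 63.5 (41.8 to 85.1) at day 5 and 119 (90.7 to 147) at day 15. It was lower and apart at day 5, by 4.02-fold, and the only one of the 12 apart in any comparison. Of all loci tested, 2.5% were lower and apart at day 5 and 1.81% at day 15, both against day 0. Higher and apart were 3.42% and 2.91%. Between days 15 and 5, 0.395% were higher and apart and 0.388% lower and apart. Of the 50-base words of the Aldh3b2 transcript, 23.5% also occur in Aldh3b3, so that the value of Aldh3b2 may include fragments of that gene. The median log2 ratio of the list was -0.22 at day 5 and -0.17 at day 15 against day 0. Aldh18a1, which makes a precursor of proline, was at 3.74, 10.9 and 7.31, and Aldh6a1, a mitochondrial enzyme of valine breakdown, at 13.9, 4.41 and 7.46, neither apart as deposited; Aldh18a1 became higher and apart at day 5 under either scaling. The folate enzyme Aldh1l1 was at 6.54, 3.84 and 2.90, and Aldh4a1, of proline breakdown, at 9.55, 5.52 and 5.59. Aldh9a1, which acts on aminoaldehydes, was at 10.1, 12.2 and 8.81.

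Over the 20 aldehyde dehydrogenase loci together, FPKM summed to 9936 at day 0, 829 at day 5 and 1468 at day 15. Aldh3a1 made up 92.1% of that sum before the burn, 36.6% at day 5 and 59.0% at day 15. Without it the other 19 loci summed to 786, 526 and 603. Aldh1a3 made up 0.635% at day 0, 26.3% at day 5 and 14.4% at day 15. With Aldh3a1 at the lower and the upper bound of its interval, its share ran from 55.9% to 95.7% at day 0, from 23.9% to 45.6% at day 5 and from 42.0% to 68.2% at day 15, so that the ranges of days 0 and 5 do not meet and that of day 15 meets both.

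**Figure D2:**
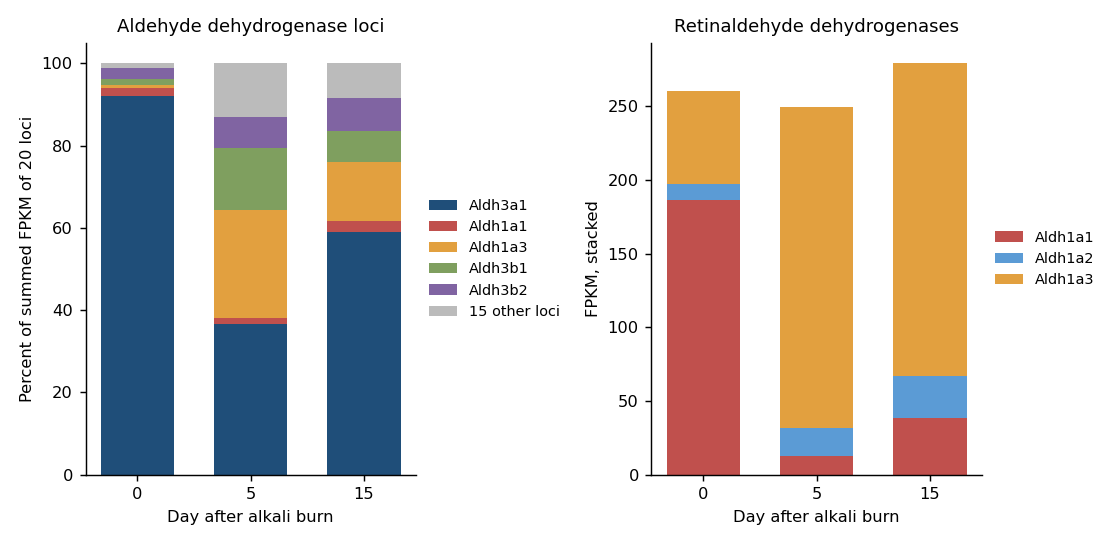
Left, the percent of the summed FPKM of 20 aldehyde dehydrogenase loci held by each named gene and by the 15 other loci; right, the FPKM of Aldh1a1, Aldh1a2 and Aldh1a3 stacked, both by day after the burn. Aldh3a1 holds 92.1%, 36.6% and 59.0% of the sum, and the retinaldehyde enzymes total 261, 249.9 and 279 with Aldh1a1 largest at day 0 and Aldh1a3 largest afterwards.

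Other enzymes that serve as crystallins in some eye or species, among them genes of low level here, were described from a list of 12. Of these, 11 passed the filter at day 5: 8 had a higher value and 3 a lower one, where 44.9% of all loci tested had a higher value. Of the 11, 1 was higher and apart, where 3.42% of all loci tested were. The median log2 ratio of the 11 was 0.42. Ldhb, a lactate dehydrogenase subunit, had an FPKM of 20.4 (8.68 to 32.0) at day 0, 73.6 (38.8 to 108) at day 5 and 45.8 (24.0 to 67.7) at day 15, and was 3.61-fold higher and apart at day 5. Eno1, the glycolytic enolase, was at 122, 304 and 208, and Gapdh at 446, 969 and 635, neither apart. Idh1, a cytosolic isocitrate dehydrogenase, was at 36.2, 43.0 and 60.5, and Asl, argininosuccinate lyase, at 34.8, 21.3 and 19.0. The merged locus of the glutathione transferases Gsto1 and Gsto2 was at 6972 (696 to 13247), 4944 (1636 to 8252) and 8244 (4920.4 to 11567) and was not apart. At day 15 none of the 12 was apart from day 0. Of all loci tested, 2.91% were then higher and apart and 1.81% lower and apart. The median log2 ratio of the 12 was 0.39, beside -0.10 over all loci tested.

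Genes around retinoic acid differed in both directions. Of 25 retinoid pathway genes, 23 passed the filter at day 5. Of these, 3 were apart upwards and 2 downwards, where 3.42% and 2.5% of all loci tested were. The list's median log2 ratio was 0.30. At day 15, 21 passed, of which 3 were apart upwards and 1 downwards (list median 0.12), where 2.91% and 1.81% of all loci tested were. Between days 15 and 5 none of the list was apart, where 0.395% of all loci tested were higher and 0.388% lower and apart. Of the 3 alcohol dehydrogenases of the list, a family that can form retinaldehyde from retinol, Adh1 and Adh7 were lower and apart at day 5 and not apart at day 15, and Adh5 was not apart. Adh1 was at 2373 (1098 to 3649), 625 (340 to 910) and 978 (511 to 1445), 3.80-fold lower at day 5. Adh7, on a locus merged with 0610031O16Rik, was at 1083 (511 to 1655), 342 (182 to 503) and 828 (388 to 1267), 3.16-fold lower at day 5. The nearest bounds of Adh7 lie only 1.02-fold from each other, and its call was lost when FPKM were scaled by the median ratio or the upper quartile. Adh5, chosen for naming after its values were seen, was at 66.9 (26.9 to 107), 82.6 (28.5 to 137) and 67.04 (23.1 to 111). Bco1, which cleaves carotene to retinaldehyde, was at 4.01 (0.858 to 7.17), 0.385 (0 to 0.894) and 0.351 (0 to 0.819), and was lower and apart at day 15 with 1.05-fold between the nearest bounds, a call lost under both scalings, a pseudocount of 5 or a minimum FPKM of 5.

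Among genes for proteins that bind retinoic acid inside cells, Crabp2 and Fabp5 were higher and apart at both times, and Crabp1 was not apart. Crabp2, which carries retinoic acid to its nuclear receptor, was at 13.2 (2.40 to 23.9) at day 0, 199 (106 to 292) at day 5 and 176 (93.4 to 259) at day 15, higher and apart at both times 15.1-fold and 13.4-fold above day 0. Fabp5, a fatty acid carrier that also binds retinoic acid, was at 512 (274 to 750), 1484 (792 to 2176) and 1936 (948 to 2924), 2.90-fold and 3.78-fold above day 0, with 1.06-fold and 1.26-fold between the nearest bounds. Dhrs9, a retinol dehydrogenase, was at 0.0921 (0 to 0.236), 2.31 (0.577 to 4.05) and 0.890 (0.0609 to 1.72), higher and apart at day 5 from a level near 0, a call lost with a pseudocount of 5 or a minimum FPKM of 5. Stra6, the membrane receptor for retinol-binding protein, was at 1.45, 4.49 and 8.68, Crabp1 at 8.28, 25.2 and 13.8 and the retinol dehydrogenase gene Rdh1 (on a locus merged with Rdh18-ps) at 10.4, 10.3 and 19.9, none of them apart. The enzymes that break retinoic acid down, Cyp26a1, Cyp26b1 and Cyp26c1, had no member apart, and the most abundant, Cyp26b1, was at 13.6, 12.8 and 14.9.

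Like Tkt, the other genes of the pentose phosphate pathway were not apart. Of 12 on the list, 9 passed the filter and none was apart in any comparison, with median log2 ratios of -0.73 at day 5 and -0.31 at day 15. At these days 3.42% and 2.91% of all loci tested were higher and apart, and 2.5% and 1.81% lower and apart. Between days 15 and 5, 0.395% were higher and apart and 0.388% lower and apart. Taldo1, the transaldolase that works beside Tkt, was at 607 (339 to 875), 366 (206 to 527) and 488 (273 to 704). Tkt stood 2.101-fold above Taldo1 at day 0 and at 0.511 and 0.377 of its level at days 5 and 15. The intervals of Tkt and Taldo1 overlapped at days 0 and 5 and were clear of each other only at day 15. The related Tktl1 was below an FPKM of 0.1 in all groups and Tktl2 was listed at 0. Among the genes with the largest log2 ratios, the lactonase gene Pgls (on a locus merged with Fam129c) was at 116, 42.0 and 48.3, Rpia at 19.6, 9.13 and 10.7, Rbks at 25.1, 6.75 and 10.9, Shpk at 5.58, 1.73 and 2.45, and H6pd at 4.42, 12.3 and 7.92. H6pd became higher and apart at day 5 under either scaling. Rpe was at 21.7, 23.8 and 31.2.

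Among 12 enzymes that clear aldehydes by other reactions, 1 was apart upwards and 1 downwards at day 5 (list median -0.37), where 3.42% and 2.5% of all loci tested were. At day 15, 1 was apart upwards (list median -0.38), where 2.91% of all loci tested were. Both genes of day 5 are aldo-keto reductases of one cluster on chromosome 6. Akr1b8 was at 9.23 (3.16 to 15.3), 95.0 (51.3 to 139) and 48.6 (26.5 to 70.7), higher and apart at both times by 10.3-fold and 5.27-fold. Akr1b7 was at 365 (199 to 531), 125 (65.8 to 183) and 261 (152 to 371), lower and apart at day 5 by 2.93-fold, with 1.08-fold between the nearest bounds and no call under upper quartile scaling. Gsta4, a glutathione transferase with a preference for the lipid aldehyde hydroxynonenal, was at 5428 (0 to 11129), 965 (412 to 1518) and 2182 (535 to 3829.7) and, with an interval that reaches 0 at day 0, was not apart. The carbonyl reductase gene Cbr3 was at 14.5, 4.28 and 7.92, and the aldehyde oxidase gene Aox3 at 3.32, 3.51 and 6.61.

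Aldh3a1 belongs to the gene battery that the aryl hydrocarbon receptor can induce. Of 10 loci for the receptor and other genes of that battery, 7 passed the filter and none was apart in any comparison. Against day 0, 3.42% of all loci tested were higher and apart at day 5 and 2.5% lower and apart. At day 15 these shares were 2.91% and 1.81%, and between days 15 and 5 they were 0.395% and 0.388%. With such shares, no call among 7 loci says little of the battery. The receptor gene Ahr was at 3.94 (1.61 to 6.26), 10.4 (5.33 to 15.4) and 10.03 (5.14 to 14.9), Arnt, its partner, at 16.9, 17.2 and 15.1, and the target gene Tiparp at 21.7, 18.2 and 17.9. Nqo1, a quinone reductase of the battery, was at 28.5 (0 to 57.1), 5.59 (0 to 17.5) and 9.07 (0 to 21.7). The merged Ugt1a locus, which holds Ugt1a6a and Ugt1a6b, was at 42.9, 39.4 and 43.6. Cyp1a1 and Cyp1a2 were listed at 0 at days 0 and 15 and stood below 0.1 at day 5.

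**Figure D3:**
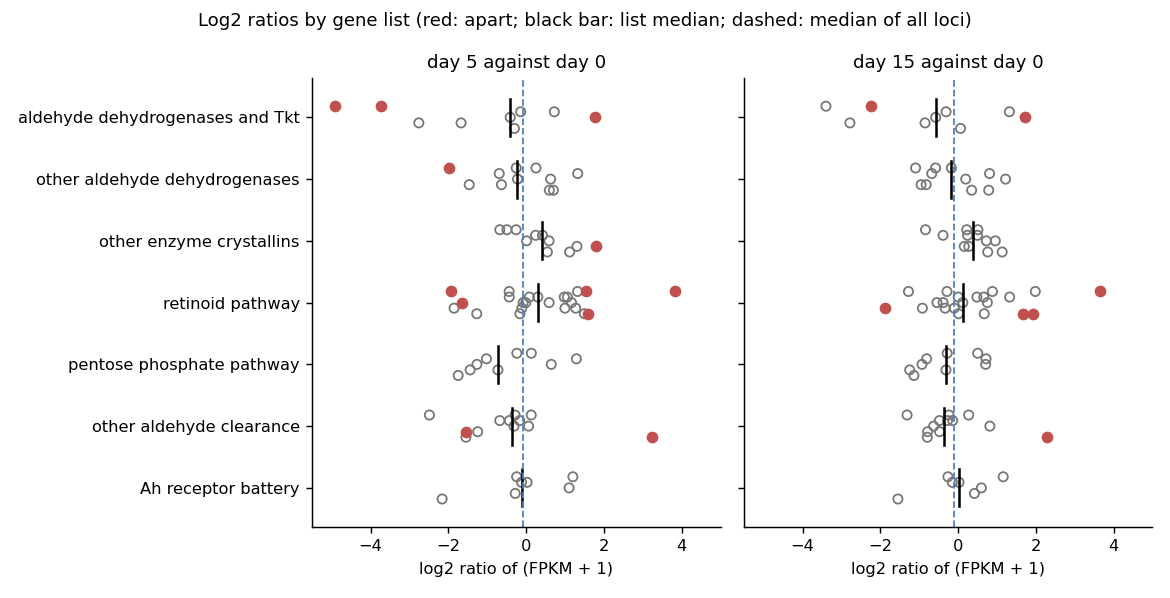
Log2 ratio of (FPKM + 1) at day 5 and day 15 against day 0 for each locus that passed the filter, by gene list; filled red points were called apart, open points were not, black bars are list medians and the dashed line is the median over all loci. Aldh3a1 and Aldh1a1 are the leftmost points at day 5, at -4.91 and -3.74, and Crabp2 is the rightmost, at 3.82.

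Markers of other tissues differed between the same groups, and their part in the values of Aldh3a1, Aldh1a1 and Aldh1a7 was not tested. Of all loci tested, 2.5% were lower and apart at day 5 and 1.81% at day 15, and 3.42% were higher and apart at day 5. The summed FPKM of 12 lens markers was 423 at day 0, 55.4 at day 5 and 282 at day 15; 7 were lower and apart at day 5 and none at day 15. Among them Mip was below an FPKM of 1 in all groups. The 6 iris and pigment markers summed to 363, 84.9 and 248, with 1 lower and apart at day 5. The 8 muscle markers summed to 549, 347 and 74.4, with 3 lower and apart at day 15. For corneal epithelium the 11 usable markers summed to 4805, 3294 and 4523, with Upk1b and Dsg1a lower and apart at day 5 and Dsg1a at day 15. The sum covers unlike members, chosen for naming after their values were seen: in percent of day 0, Dsg1a stood at 1.30% and 6.78%, Upk1b at 10.4% and 37.2%, and Krt14 at 279% and 423%. The 10 keratocyte markers summed to 5873, 3884 and 5242, with 3 lower and 1 higher and apart at day 5. In percent of day 0, Aldh3a1 stood at 3.31% at day 5 and Aldh1a1 at 6.98%, below the summed levels of the epithelial (68.5%), keratocyte (66.1%), lens (13.1%) and pigment (23.4%) markers, and at day 15 at 9.46% and 20.8%, against 94.1%, 89.3%, 66.7% and 68.4%. The keratocyte and lens sums cover unlike members too. At day 5 the log2 ratios of single keratocyte markers ran from -5.40 to 2.59 and those of lens markers from -3.78 to -0.82. Those of Aldh3a1 and Aldh1a1 were -4.91 and -3.74. The lowest keratocyte marker thus stood below both genes, and the lowest lens marker below Aldh1a1. The ratio of Aldh3a1 to Krt5, a keratin of basal epithelial cells, was 7.63, 0.514 and 1.09. Krt5 itself was at 1199 (0 to 2445), 590 (175 to 1005) and 796 (95.2 to 1498). The intervals of Aldh3a1 and Krt5 overlapped in every group, so these ratios are uncertain. The ratio to Upk1b, a tetraspanin of superficial cells, was 9.20, 2.93 and 2.34. Upk1b was at 995 (447 to 1542), 103 (61.2 to 146) and 370 (193 to 547), and its intervals overlapped those of Aldh3a1 at days 0 and 15.

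Some markers of conjunctiva, leukocytes and blood vessels were higher and apart in the groups where Aldh1a3 and Crabp2 were, and their part was not tested. Of all loci tested, 3.42% were higher and apart at day 5 and 2.91% at day 15. Conjunctival and goblet cell markers summed to 1738, 4132 and 10430.5 over 10 genes, with 6 higher and apart at day 5 and 8 at day 15, and Muc5ac, Spdef and Tff1 were below an FPKM of 1 at day 0. Of 10 leukocyte markers, 9 were in the table (Ly6g has no row under its symbol), 8 passed the filter and 3 were higher and apart at each day; Cd3e was below 1 throughout. They summed to 712, 1430.4 and 1436, of which the Cd68 locus, merged with Eif4a1, Senp3 and Tnfsf genes, made up 579, 587 and 559. Without that locus, left out after the values were seen, the sums were 133, 844 and 876. The 6 markers of blood endothelium summed to 15.9, 61.3 and 64.5, with 4 higher and apart at each day, and Kdr at 3.66, 3.47 and 3.88. Of 10 reference genes none was apart, and their sum at day 5 was 92.8% of that at day 0. Lower and apart were 2.5% of all loci tested at day 5 and 1.81% at day 15.

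**Figure D4:**
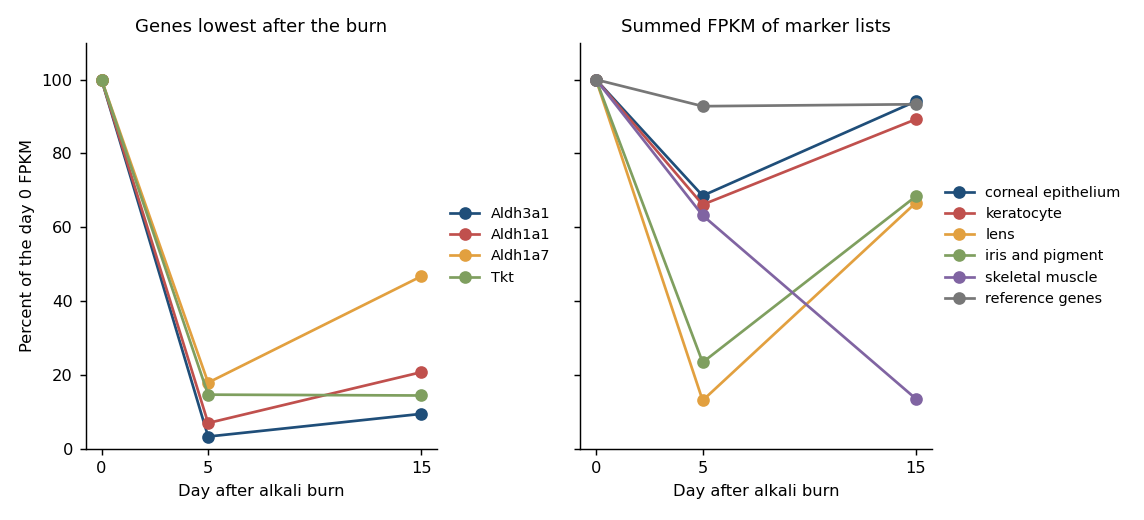
FPKM at each day as a percent of day 0, for the 4 genes with the lowest values after the burn (left) and for the summed FPKM of marker lists (right); the horizontal axis is days after the burn and lines join the group values. Aldh3a1 stands at 3.31% and 9.46%, Tkt at 14.7% and 14.4%, and the epithelial sum at 68.5% and 94.1%, within which Dsg1a stands at 1.30% and 6.78% and Krt14 at 279% and 423%.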

How the data were processed

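The table was deposited by the authors as FPKM per gene locus, with 1 value, 1 lower and 1 upper bound per group, per the file headers; there are 0 further columns for single samples. Per the submitters' processing notes, the build was mm10 and the tools were Cufflinks 2.2.1, Bowtie2 2.2.6, TopHat2 2.1.0 and Cuffdiff, whose version is not given in the sources used here; how the 2 samples of a group were pooled is not stated there. Poly(A) cDNA libraries were made from total RNA, per the labels' protocols. Depth is unknown.

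Loci were matched by symbol, split at commas. Of several loci with 1 symbol, the one with the highest mean was used. Log2 ratios use a pseudocount of 1, which makes differences of low genes look smaller, while a fold divides one FPKM by the other. The call rule was applied to all 28539 loci and tested on simulated data. Named genes are the 9 listed, and from each of 6 pathway lists up to 4 genes per comparison with the largest log2 ratios at an FPKM of at least 5, plus every gene apart. Values of some list genes are not reported here. The genes and the lists were chosen with earlier results of these data known. The planned fits on single samples could not be made. Coordinates are 1-based. Python 3.11.15, numpy 2.4.6, pandas 2.3.3 and matplotlib 3.10.9 were used.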

Additional observations from a re-analysis of the deposited data

How the results depend on the processing

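No paired analysis was possible because the columns are pooled over the 2 samples of a group, and no sample could be left out for the same reason. Requiring 4-fold took the higher and apart count among the 9 genes to 0 at both days, since Aldh1a3 (log2 ratios of 1.78 and 1.73) falls short; the genes apart in any comparison fell from 1 to 0 for other aldehyde dehydrogenases and for other enzyme crystallins, from 7 to 1 for the retinoid list and from 2 to 1 for other aldehyde clearance. Without the interval rule, the lower count became 4 at day 5 (Aldh1a7 and Tkt joined) and 3 at day 15 (Aldh3a1 and Tkt joined), the higher count 2 at day 15 (Aldh1a2 joined) and 2 for day 15 against day 5 (Aldh3a1 and Aldh1a1); the lists then had 4 (other aldehyde dehydrogenases), 3 (enzyme crystallins), 12 (retinoid), 5 (pentose phosphate), 5 (aldehyde clearance) and 3 (Ah receptor) genes apart in any comparison. Over all loci tested, dropping the interval rule raised the lower count from 389 to 1722 of 15576 at day 5. At day 15 it rose from 275 to 1432 of 15186. The higher count rose from 533 to 1687 and from 442 to 1270 at these days. Between days 15 and 5 the higher count rose from 58 to 384 of 14683. The 4-fold limit left 308 higher and 199 lower at day 5, and 232 and 147 at day 15. Leaving out loci that name several genes removes Aldh1a1, Tkt and Aldh3b1, and left 1 lower at day 5 and 0 at day 15. Scaling by the median ratio gave 2 other aldehyde dehydrogenases (Aldh18a1 joined) and 1 pentose phosphate gene (H6pd) apart, and took the retinoid list from 7 to 5 (Adh7 and Bco1 lost), as did a pseudocount of 5 and a minimum FPKM of 5 (Dhrs9 and Bco1 lost). Upper quartile scaling, added for the lists after seeing the data, lost Adh7, Bco1 and Akr1b7. Leaving the merged Cd68 locus out of the leukocyte sums, also added then, gave 133, 844 and 876. Median ratio scaling has log2 factors of -0.11 at day 5 and -0.07 at day 15, and upper quartile scaling -0.13 at both. Every ratio to day 0 would be higher by about these amounts. No call of the 9 genes changed with median ratio scaling, with upper quartile scaling, with pseudocounts of 0.1 and 5, with other filters on low values, with a 1.5-fold limit or with loci of 1 symbol summed. The share of Aldh3a1 in the family at the bounds of its interval, with the other loci held at their FPKM, was 55.9% and 95.7% at day 0, 23.9% and 45.6% at day 5, and 42.0% and 68.2% at day 15. No called ratio changed sign.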

Other observations

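Genes with a course most like that of Aldh3a1 were found among 821 other loci of 1 symbol with an FPKM of at least 100 at day 0, by the distance over the log2 ratios of days 5 and 15 to day 0. Loci without a usable value in every group were left out, as were symbols of predicted gene models, microRNAs and small nucleolar RNAs. The nearest was Ptgr1, a reductase of prostaglandins and other unsaturated carbonyl compounds, at 598 (320 to 877), 22.7 (11.1 to 34.2) and 64.8 (35.2 to 94.5), with log2 ratios of -4.66 and -3.19 and a distance of 0.328. Aqp5, a water channel of the corneal epithelium, followed at 1062 (338 to 1786), 25.6 (10.9 to 40.2) and 104 (56.0 to 152), with a distance of 0.415. Erich5 was at 224, 4.43 and 15.6, and Ces1d, a carboxylesterase, at 368, 16.2 and 45.7. The fifth was Trpm3, a cation channel gene and the host of the miR-204 hairpin, at 129 (11.3 to 247), 3.25 (0 to 7.79) and 6.76 (0 to 14.0). Likeness was measured over the 3 group values only, so it is a description, and Tkt, with log2 ratios of -2.76 and -2.79, was not among these 5.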
